A study of Mus musculus with 2 samples.

Results

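The ISG15 conjugation system was followed in immune cells sorted from subcutaneous tumors of MC38, a colon carcinoma cell line of the mouse. Its 5 genes, Isg15, Usp18, Uba7, Ube2l6 and Herc6, were found by symbol, with 1 row each among the 32285 genes of both count tables. The genes were selected on their summed UMIs and positive cells by lineage in these same libraries, so every value below is a description and carries no test. UMIs (unique molecular identifiers) count the RNA molecules captured from a cell. The Control library was made without irradiation, and the IR library 4 days after the tumors had received 20 Gy of ionizing radiation in 1 dose. The hosts in both groups were labelled WT, a name that elsewhere in the study covers Ythdf2 fl/fl mice without Cre, and were 8 to 10 weeks old. The CD45+ cells of 4 tumors were pooled in each library. There was thus no replicate, and all intervals are 95% exact intervals that cover counting error only, not variation between animals or libraries.

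ISG15 is a ubiquitin-like protein that interferon induces strongly. It is attached to other proteins by a cascade in which UBA7 activates it (the E1 enzyme), UBE2L6, also known as UBCH8, carries it (the E2 enzyme), and a HERC ligase transfers it (the E3 enzyme), the role that HERC6 has in mice. USP18 removes ISG15 from its targets and separately binds the receptor subunit IFNAR2, where it dampens type I interferon signaling. Free ISG15 can also be secreted and acts on lymphocytes through the integrin LFA-1. RNA counts measure none of these protein steps.

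Of 4975 Control and 3507 IR barcodes with at least 1000 UMIs, 4679 and 3410 cells passed the limits of 200 genes and 25% mitochondrial UMIs, with a median of 7302 and 8268.5 UMIs. Ptprc, which encodes CD45, was detected in 85.7% and 85.2% of them, and only 6 cell barcodes were shared by the libraries. A narrower cell type, CD45+CD11b+Ly6Chi, is also given for both samples and did not match these cells, since Itgam (CD11b) and Ly6c2 were detected together in 20.2% of Control and 44.1% of IR cells. Cells were placed in 11 lineage gates, each drawn from the level of 6 marker genes, and 9 gates with at least 20 cells in both libraries were compared. The gates held 530 Control and 1057 IR monocyte cells, 2436 and 616 macrophages, 430 and 256 T cells, 143 and 189 NK cells, 59 and 42 cDC2, 125 and 148 mature dendritic cells (DC), 29 and 191 neutrophils, 33 and 62 mast cells or basophils, and 95 and 100 collagen-expressing cells. In the last gate Ptprc was detected in only 4.21% and 8.00% of cells, so it holds few cells that match the sort. The monocyte gate rests on its own gate genes: of 6 further monocyte genes left out of the gate, 0 in Control and 3 in IR had their highest level there, and Ighm, Jchain and Igkc, genes of antibody-producing cells, were among its leading genes in Control. For cDC2 this held for 3 and 0 of 6 such genes. In the other 7 compared gates it held for at least 4 of 6 in each library.

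Isg15, the modifier itself, had 3670 UMIs in Control and 27064 in IR, or 88.4 CPM (85.5 to 91.3) and 715 CPM (707 to 724), where CPM are a gene's UMIs per 1000000 UMIs of the summed cells. The IR level was 8.09-fold that of Control (7.82 to 8.38). Isg15 lies on mouse chromosome 4 (GRCm38, chr4:156199424-156200818, minus strand). Its promoter, 250 bases before to 50 after the RefSeq start, is shown because it holds the motif GAAANNGAAA, the core of the interferon-stimulated response element, 3 times on the gene's strand, with overlapping matches that start 78, 72 and 66 bases before the transcription start. Beside it stands the promoter of Uba7, the member with the smallest IR over Control ratio in all cells, with no match on either strand. Capitals mark the bases of the motif matches.

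Isg15 (GRCm38.p6, chr4:156200769-156201068, minus strand): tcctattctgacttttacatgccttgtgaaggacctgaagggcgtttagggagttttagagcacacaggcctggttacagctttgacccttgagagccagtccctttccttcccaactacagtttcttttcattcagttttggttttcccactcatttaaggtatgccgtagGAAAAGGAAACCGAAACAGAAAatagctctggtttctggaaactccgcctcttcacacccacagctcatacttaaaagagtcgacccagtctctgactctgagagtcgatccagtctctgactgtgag
Uba7 (GRCm38.p6, chr9:107975317-107975616, plus strand): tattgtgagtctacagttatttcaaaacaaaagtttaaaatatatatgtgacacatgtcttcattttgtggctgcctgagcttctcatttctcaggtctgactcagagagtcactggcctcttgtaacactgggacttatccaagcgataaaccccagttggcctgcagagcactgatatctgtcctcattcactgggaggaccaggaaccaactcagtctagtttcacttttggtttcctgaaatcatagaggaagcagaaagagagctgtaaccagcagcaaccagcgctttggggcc

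The windows of Ube2l6 (chr2:84798578-84798877) and Herc6 (chr6:57580742-57581041) held no match either, and no window for Usp18 was used here. Among 32851 RefSeq promoters of this length, 1131 (3.44%) held the motif on either strand, as did 3 of 46 promoters of related genes described below (Mocs3, Skp2 and Stat2). A match is a description of the letters, and its absence says only that these letters are not in the window.

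Isg15 was at least 2-fold higher in IR in 9 of 9 gates, without overlap of the counting intervals in any of them. The highest Isg15 level in both libraries was in neutrophils, at 956 CPM in Control (712 to 1257, 29 cells) and 2997 CPM in IR (2872 to 3126). This is a level relative to all UMIs, and neutrophils were the shallowest compared gate (median 1768 and 2603 UMIs). Per cell, the median IR neutrophil held 5 Isg15 UMIs and the median IR collagen-expressing cell 11. By CPM, monocyte-gate cells followed with 201 and 954, and their IR interval overlapped that of mature DC, which went from 122 to 945 CPM. In Control the intervals of monocyte-gate cells (186 to 217 CPM) and of mature DC overlapped that of mast cells or basophils (60.5 to 217 CPM, 11 UMIs). Only neutrophils therefore stood apart at the top of the Isg15 order in both libraries. The lymphocyte gates were at the bottom in both libraries.
T cells had 45.0 CPM of Isg15 in Control and 261 in IR, a log2 ratio of 2.53 that became 3.21 when Ly6c2 and Plac8 were left out of the monocyte gate genes. NK cells had 34.1 and 98.2 CPM, the lowest level among the 9 gates in both libraries and the smallest log2 ratio, 1.52 (0.96 to 2.13), although in Control their interval overlapped that of T cells. In the Control NK gate 1 cell held 29.0% of the 31 Isg15 UMIs, and with a stricter margin between lineage scores the NK log2 ratio was 2.48.
The largest log2 ratio, 3.39 (3.16 to 3.64), was in the collagen-expressing cells, where Isg15 was at 77.7 CPM in Control and 817 in IR. Here 1 Control cell held 27.6% of 152 UMIs. Macrophages went from 81.5 to 571 CPM and cDC2 from 100.4 to 672 CPM, with a cDC2 log2 ratio of 2.74, or 2.07 without those monocyte gate genes and 3.20 with the stricter margin. Mast cells or basophils had 121 CPM in Control, from 11 UMIs, and 529 in IR. In the plot of levels by gate the Isg15 points of Control and IR lie apart in every gate.

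**Figure D1:**
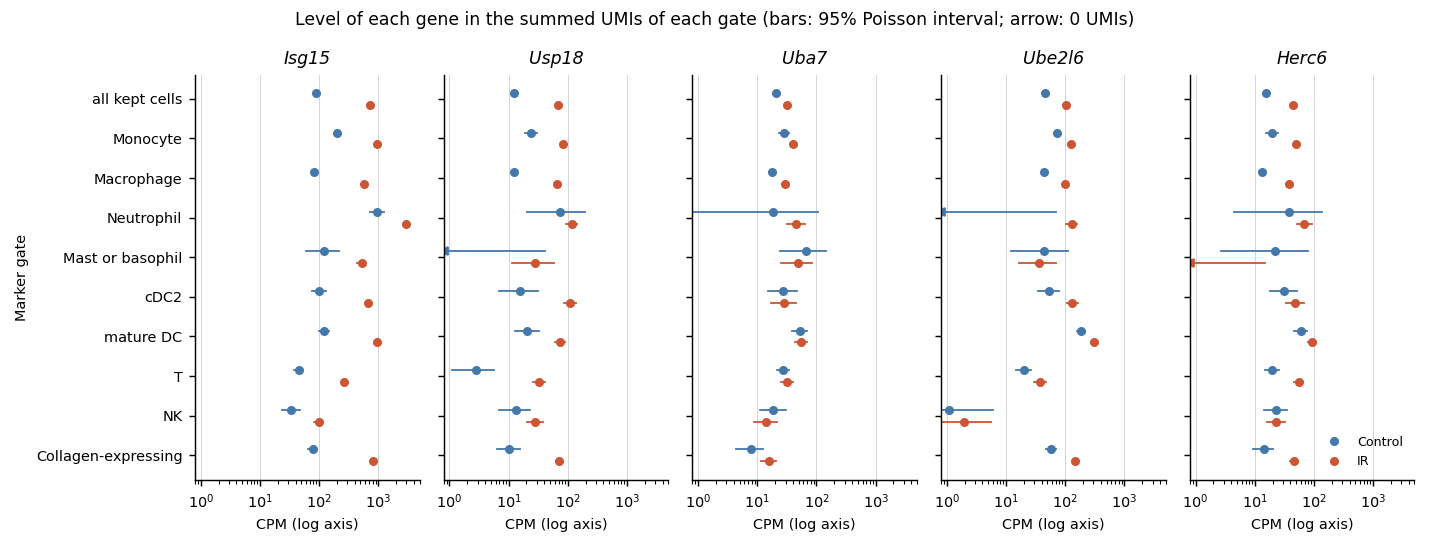
Level of each gene in CPM (horizontal log axis) in all kept cells and in 9 marker gates (rows), Control in blue and IR in red, with 95% exact Poisson intervals as bars and an arrow at the axis for 0 UMIs (bars that run below the axis are cut off). Isg15 in IR lies to the right of Control in every row, Uba7 points mostly share their intervals, and Ube2l6 in NK cells sits near the left edge in both libraries.

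The make-up of the libraries moved along with treatment, so the level in all cells mixes cell shares and levels per lineage. Macrophages supplied 51.6% of Isg15 UMIs in Control and 15.7% in IR, while monocyte-gate cells supplied 18.5% and 35.2%. This division depends on the gate genes. Without Ly6c2 and Plac8 the monocyte gate held 429 Control and 607 IR cells, and the macrophage gate 2477 and 803. The values of this paragraph were not recomputed with that gate. Neutrophils, with 1.91% of all IR UMIs, supplied 8.00% of those of Isg15. For the next calculation the ungated cells, with 18.2% of Control and 26.7% of IR UMIs, were taken as 1 more gate. Their Isg15 level was 74.7 CPM in Control and 559 in IR. Had every gate kept its Control level at its IR share of UMIs, Isg15 would have stood at 125 CPM in IR. That is a log2 change of 0.51 out of the 3.02 measured. The same calculation gave 0.32 of 2.46 for Usp18, 0.24 of 1.52 for Herc6, 0.18 of 1.17 for Ube2l6 and 0.19 of 0.60 for Uba7. Within a gate, fewer cells of a subtype and less RNA per cell cannot be told apart.

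The number of cells with Isg15 RNA was compared after each cell was thinned to 1000 UMIs, which removes differences in depth. The Isg15-positive share was 7.25% in Control (6.52% to 8.03%) and 34.2% in IR (32.6% to 35.8%), against 30.1% and 66.9% without thinning. Neutrophils stood out already in Control, with 48.3% positive (29.4% to 67.5%), and reached 74.9% in IR (68.1% to 80.9%). In the monocyte gate the thinned share was 14.3% and 39.8%, and in macrophages 6.49% and 33.1%.
The lymphocyte gates had the fewest positive cells in IR. T cells were positive in 5.35% and 14.1%, and NK cells in 2.80% (0.77% to 7.01%) and 8.47% (4.92% to 13.4%), so for NK cells the intervals overlapped. In the plot of positive cells neutrophils are again highest and the lymphocyte gates lowest in IR, while the gates between are not in the order of their CPM. The IR cells of the collagen-expressing gate were the deepest (median 32008.5 UMIs), and 42.0% of them were positive after thinning.

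**Figure D2:**
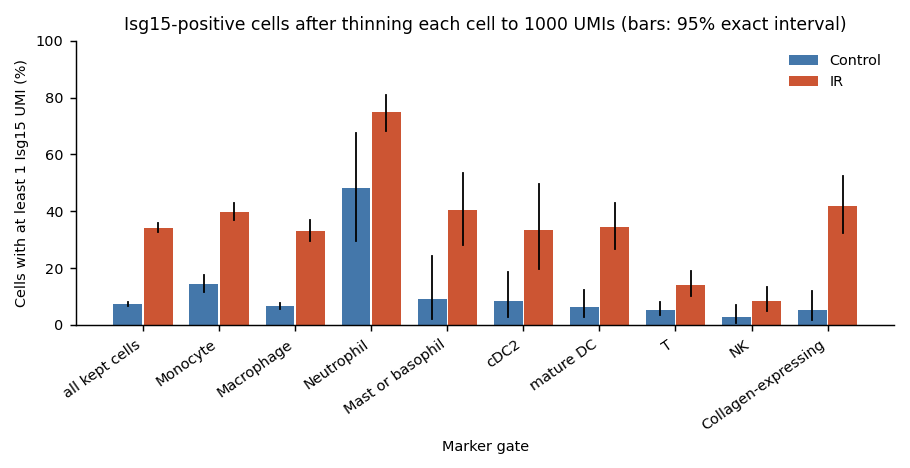
Percent of cells with at least 1 Isg15 UMI after thinning to 1000 UMIs (vertical axis) in all kept cells and in 9 gates, Control in blue and IR in red, with 95% exact binomial intervals as black lines. IR bars stand above Control bars in every gate, from 8.47% in NK cells to 74.9% in neutrophils.

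Free RNA in the droplets can place UMIs in cells that do not express a gene, and no cell type known to lack Isg15 was available as a measure of it. In barcodes of 10 to 100 UMIs, taken as empty droplets, Isg15 stood at 130 CPM in Control and 634 in IR. The share of a gate's UMIs that came from free RNA was estimated from the C1q or T cell genes found in it. Cells with a high score for another lineage had been left ungated, so this estimate can be too low and is no upper limit. The estimate was 8.96% and 9.87% in the monocyte gate, 4.03% and 10.4% in neutrophils, 2.18% and 3.24% in T cells and 1.55% and 0.97% in NK cells. At these shares free RNA supplied 7.89% of the Isg15 level of T cells and 6.25% of that of NK cells in IR. For macrophages, where T cell genes gave the estimate and doublets count toward it, it was 21.1% and 15.3%, or 33.7% of the Isg15 level in Control and 17.0% in IR. Without that amount the macrophage log2 ratio was 3.03 in place of 2.81.

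Usp18, the protease that removes ISG15, stood at 12.3 CPM in Control (11.2 to 13.4, 510 UMIs) and 67.4 CPM in IR (64.8 to 70.1, 2550 UMIs), a 5.49-fold higher level (4.99 to 6.05). It lies at chr6:121245906-121270917. In 7 of the 8 gates with at least 20 Usp18 UMIs over both libraries it was at least 2-fold higher in IR, in 6 of the 8 without overlap of the intervals.
T cells had almost no Usp18 in Control, 7 UMIs or 2.76 CPM (1.11 to 5.69), and 33.1 CPM in IR (25.8 to 41.9), its largest log2 ratio at 3.58 (2.47 to 4.95). cDC2 had 15.7 and 109 CPM, the collagen-expressing cells 10.2 and 71.7, and macrophages 12.3 and 65.4.
Monocyte-gate cells started at 23.9 CPM of Usp18 and reached 83.5, a log2 ratio of 1.80 (1.47 to 2.15). In neutrophils only 4 Control UMIs were counted (75.0 CPM, 20.4 to 192), too few to tell them from the IR level of 118 CPM (94.0 to 146). NK cells had 13.2 and 28.2 CPM, with overlapping intervals of the levels but a ratio of 2.14-fold (1.11 to 4.45).

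The E1 enzyme Uba7 (chr9:107975505-107984060) differed least. Its level was 20.5 CPM in Control (19.2 to 21.9) and 31.2 CPM in IR (29.4 to 33.0), 1.52-fold higher (1.39 to 1.66). Among the 8 gates with enough Uba7 UMIs, the intervals were apart in monocyte-gate cells (28.7 and 39.7 CPM) and macrophages (17.5 and 29.5 CPM) only. The log2 ratio of IR over Control was 0.24 in T cells (-0.27 to 0.75), 0.04 in cDC2 (-1.05 to 1.16), 0.10 in mature DC (-0.43 to 0.63) and -0.41 in NK cells (-1.39 to 0.60). These intervals include no difference, and in T cells and mature DC they leave out a 2-fold difference in either direction. Uba7 passed 2-fold in the collagen-expressing cells, at 7.67 and 15.7 CPM, with overlapping intervals of the levels but a ratio of 2.05-fold (1.14 to 3.91), and in neutrophils, where the Control level rests on 1 UMI (log2 ratio 1.29, -1.29 to 6.63). Mature DC had the highest Uba7 level in IR, 55.4 CPM, and its interval overlapped that of the next gate, mast cells or basophils.

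The E2 enzyme Ube2l6 (chr2:84798828-84810335) stood at 46.2 CPM in Control (44.1 to 48.3) and 104 CPM in IR (100.4 to 107), 2.24-fold higher (2.12 to 2.37). At the top, its order of lineages differed from that of Isg15. Mature DC had the highest level in both libraries, 185 CPM in Control (159 to 215) and 304 in IR (277 to 333), apart from every other gate, although they ranked below neutrophils and monocyte-gate cells for Isg15.
NK cells had almost no Ube2l6, 1 UMI in 143 Control cells (1.10 CPM, 0.03 to 6.14) and 3 UMIs in 189 IR cells (1.93 CPM, 0.40 to 5.63). T cells, at 20.1 and 37.9 CPM, lay far above them in both libraries. Without thinning, 0.70% of Control and 1.59% of IR NK cells had a Ube2l6 UMI, against 9.53% and 17.6% of T cells, at median depths of 5085 and 5039 UMIs for NK and 4359 and 5709.5 UMIs for T cells. The same NK cells had Uba7 at 18.7 and 14.1 CPM and Herc6 at 23.1 CPM in both libraries.
Ube2l6 was at least 2-fold higher in IR in 4 of 7 gates with enough UMIs: macrophages (43.8 and 99.7 CPM), cDC2 (53.2 and 132), the collagen-expressing cells (57.8 and 148) and neutrophils. In neutrophils 0 Control UMIs were counted, where the 3 counts that a count of 0 allows would be 56.2 CPM, a level that the IR level of 130 CPM exceeded 2.32-fold. The exact lower limit of the ratio was 1.85-fold, so the neutrophil count past 2-fold rests on the 3-count floor, and with the stricter margin the log2 ratio at that floor was 0.43. In cDC2 the Ube2l6 log2 ratio of 1.32 became 0.71, no longer past 2-fold, without Ly6c2 and Plac8 among the monocyte gate genes. Monocyte-gate cells were at 73.3 and 125 CPM, a log2 ratio of 0.78 (0.58 to 0.98).

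Herc6, the E3 ligase (chr6:57581000-57664632), stood at 15.8 CPM in Control (14.6 to 17.1) and 45.2 CPM in IR (43.1 to 47.4), 2.86-fold higher (2.61 to 3.14). The highest Herc6 level was again in mature DC, 60.1 CPM in Control and 93.4 in IR, with intervals that overlapped those of neutrophils. It was at least 2-fold higher in IR in 4 of 8 gates: T cells (19.7 and 55.4 CPM), monocyte-gate cells (19.8 and 49.8), macrophages (13.1 and 37.5) and the collagen-expressing cells (14.3 and 46.2). In NK cells the log2 ratio was -0.00 (-0.82 to 0.85), from 21 and 36 UMIs. T cells and NK cells therefore had like Herc6 levels in Control, while in IR the intervals of T cells (45.8 to 66.4 CPM) and NK cells (16.2 to 32.0 CPM) were apart.

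Read against all genes, 4 of the 5 members were at least 2-fold higher in IR in all kept cells, where 5.69% of 14174 genes with at least 20 UMIs were. In macrophages 4 members passed, with 3.95% of genes, in monocyte-gate cells 3, with 3.45%, and in T cells 3, with 2.39%. In cDC2 3 members passed, with 4.42% of genes, in mature DC 2, with 4.73%, and in NK cells 2 of the 4 with enough UMIs, with 3.17%. In the collagen-expressing cells 5 passed, with 3.51%. The cDC2 count was 2 without Ly6c2 and Plac8 among the monocyte gate genes, where the T cell count was 4, and the collagen count was 4 with the highest doublet scores removed (Uba7 log2 ratio 0.96).
The neutrophil and mast cell or basophil gates are less firm. In neutrophils 3 members passed, Ube2l6 only at its 3-count floor, and so did 23.0% of genes, and TMM scaling, which moved this gate's log2 ratios by 0.80, made it 5 members. In mast cells or basophils Isg15 alone had 20 UMIs and passed, with 10.7% of genes. Since the members were chosen with this contrast in view, nothing is read from these counts beyond their size.

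In the monocyte and macrophage gates of IR, the only ones split this way besides their Control counterparts, the other members were higher in cells with more Isg15. IR monocyte-gate cells were split by their Isg15 UMIs after thinning to 1000 into 636 cells with 0, 277 with 1 to 2 and 144 with 3 or more, and the other genes were read from all UMIs of these cells. Usp18 stood at 37.8, 105 and 275 CPM along these classes. Ube2l6 stood at 75.9, 153 and 321 CPM. The intervals of successive classes did not overlap for either gene.
Herc6 (29.1, 67.3 and 118 CPM) and Uba7 (29.4, 45.6 and 80.4 CPM) were ordered likewise, again without overlap. The constitutive enzymes of the ubiquitin pathway moved less: the ubiquitin E1 Uba1 stood at 124, 142 and 169 CPM and the E2 Ube2l3 at 215, 257 and 289 CPM, while Ptprc ran the other way with 627, 571 and 519 CPM. The intervals of the lowest and highest classes were apart for Uba1 (115 to 133 and 146 to 194 CPM) as well. The same held for Ube2l3 (203 to 227 and 259 to 321 CPM). How many of all genes were ordered in this way was not counted. The median depth of the classes was 8071, 8441 and 7347.5 UMIs.
IR macrophages gave 36.0, 94.1 and 238 CPM of Usp18 and 68.0, 136 and 269 CPM of Ube2l6 over 412, 157 and 47 cells. Their Herc6 level was 26.4, 56.2 and 73.8 CPM, with overlapping intervals in the upper classes. Their Uba7 level was 25.2 and 30.2 CPM in the lower classes, with overlapping intervals, and 68.1 CPM in the upper class. The plot by Isg15 class shows these slopes beside the flatter lines of Uba1 and Ube2l3. Cells of 1 library share its free RNA, whose part in this pattern was not tested.

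**Figure D3:**
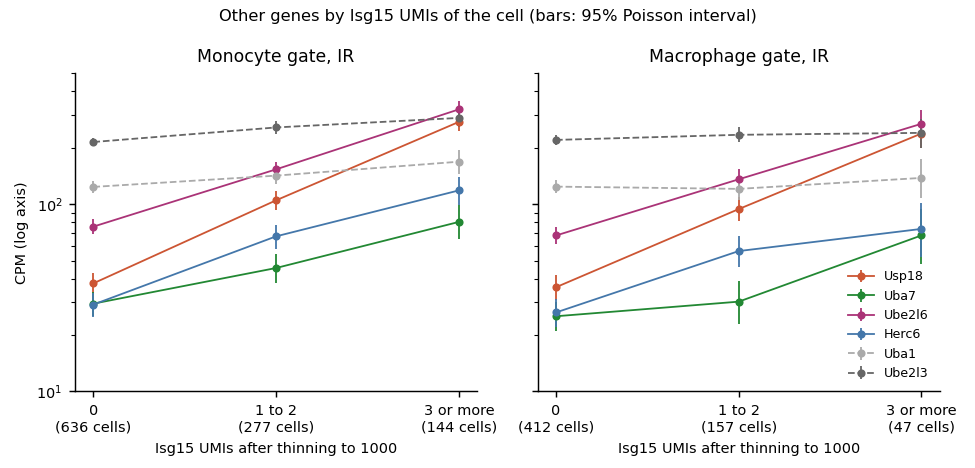
CPM (vertical log axis) of 4 members and of Uba1 and Ube2l3 (dashed) in IR cells of the monocyte gate (left) and macrophage gate (right), by the Isg15 UMIs of the cell after thinning to 1000 (horizontal axis, with cell numbers), with 95% exact Poisson intervals. Usp18 runs from 37.8 to 275 CPM in the monocyte gate, while Uba1 runs from 124 to 169 CPM.

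A few Control cells already had high Isg15, although Uba7 was not ordered by Isg15 class in Control monocyte-gate cells (25.6, 50.6 and 34.0 CPM, the last from 2 UMIs). Among 530 Control monocyte-gate cells 454 had no Isg15 UMI after thinning and 8 had 3 or more. Usp18 stood at 12.6 CPM (8.89 to 17.4) in the 454. The 8 held 26 of the gate's 81 Usp18 UMIs, or 442 CPM (288 to 647). How these 26 UMIs were spread over the 8 cells was not examined. In Control macrophages 10 of 2436 cells had 3 or more Isg15 UMIs after thinning, with Usp18 at 111 CPM (53.2 to 204). Their Ube2l6 level was 299.5 CPM (197 to 436). Isg15 was uneven over cells in both libraries: the tenth of cells with the most Isg15 UMIs held 69.0% of them in Control and 55.5% in IR. The median cell had 0 Isg15 UMIs in Control and 2 in IR.
Cells with 3 or more members detected after thinning were 9 of 4679 in Control (0.19%, 0.09% to 0.36%) and 76 of 3410 in IR (2.23%, 1.76% to 2.78%). All 5 members were detected together, at full depth, in 21 cells of Control and 219 of IR. After thinning, cells without any of the 5 made up 85.4% of Control and 57.0% of IR.

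Related genes of the ubiquitin-like pathways are set beside the members, which were chosen with this contrast in view. Among all 14174 genes in all kept cells, 5.69% were at least 2-fold higher in IR and 2.63% at least 2-fold lower. Low counts in lists as short as those below therefore say little about these families. Of 16 modifiers, 15 lay within 2-fold, and Ubd, which encodes the inducible modifier FAT10, went from 7.90 to 18.4 CPM, a log2 ratio of 1.22 (1.03 to 1.42). Little of this Ubd came from the largest gates, with 2 and 2 UMIs in the monocyte gate and 15 and 3 in macrophages, of 328 and 697 in all. The ubiquitin gene Ubb had a log2 ratio of 0.55, and Nedd8 had -0.07.
None of 9 E1 enzymes passed 2-fold in either direction, with a median log2 ratio of -0.05. Uba1 was at 132 and 128 CPM, and Atg7, which activates autophagy modifiers, was the highest at 0.30. None of 12 E2 enzymes passed either (median 0.05): Ube2l3, the close relative of Ube2l6, was at 199 and 231 CPM, and Ube2c, an E2 of mitosis, was the lowest at -0.82. Within macrophages Ube2c was past 2-fold lower, at -1.53 (-1.71 to -1.35), and within the monocyte gate it was at 0.00.
Of 6 HERC genes and other ligases 0 passed, and Trim25, an interferon-inducible ligase, was the highest at 0.53 (0.46 to 0.59). Herc1, Herc2, Herc3 and Herc4, the relatives of Herc6, lay between -0.30 and 0.24. Of 9 proteases 0 passed, with a median of -0.15, and Usp13, the highest at 0.84, rested on 11 and 18 UMIs.
Among 8 partners of ISG15 and USP18, Stat2, which recruits USP18 to the receptor and belongs to the interferon-responsive complex ISGF3, went from 25.8 to 60.3 CPM (log2 ratio 1.23, 1.12 to 1.33). Within macrophages Stat2 was at 1.41 and within the monocyte gate at 0.89, short of 2-fold, while Skp2, also in this list, was at -1.08 in macrophages (-1.75 to -0.47). In all kept cells Irf9, which also belongs to ISGF3, had 0.56, the receptor subunits Ifnar1 and Ifnar2 had 0.05 and 0.21, and Itgal and Itgb2, the subunits of LFA-1, had -0.02 and 0.27. The median over all genes was -0.01. The plot of related genes sets these values beside the members.

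**Figure D4:**
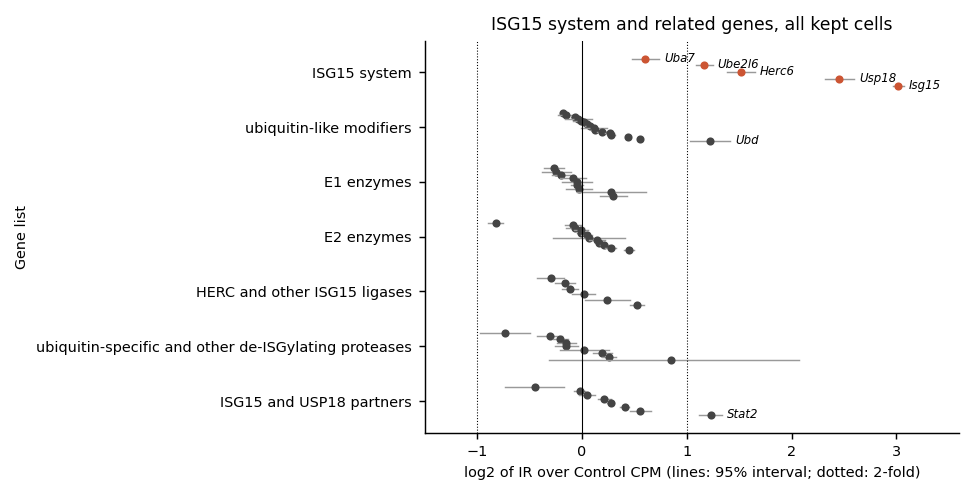
Log2 of IR over Control CPM in all kept cells (horizontal axis) for the 5 members (red) and 60 related genes in 6 lists (black), with 95% exact intervals as grey lines and dotted lines at 2-fold. Outside the members, Ubd (1.22) and Stat2 (1.23) are the only genes beyond the dotted line.

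Over the 18 profiles of gate and library, the genes whose log2 level (with 10 CPM added) was most like that of Isg15, among 10646 genes, were Ifit3, Ifit1, Usp18, Rsad2, Oasl2, Ifit3b, Oas3, Zbp1, Rtp4 and Irf7, with Pearson r from 0.92 down to 0.82. The profiles of a library share its free RNA and those of a gate its lineage, so r is a description.
Of the other members only Usp18 was among these genes, while Herc6, Ube2l6 and Uba7 ranked 433, 443 and 886 in likeness to Isg15. The r with Isg15 was 0.89 for Usp18, 0.48 for Ube2l6, 0.48 for Herc6 and 0.35 for Uba7, and Uba7 and Usp18 had an r of 0.08. Some profiles hold few UMIs of a member, such as 1 and 3 of Ube2l6 in NK cells and 2 and 0 of Herc6 in mast cells or basophils. The part of such low counts in these r values was not tested. Uba7 was most like Jak2, Nfkb1 and H2-T23 (r 0.87 to 0.86), Ube2l6 most like Tdrd7 and Tnfsf9 (0.90 each), and Herc6 most like Rnf114 (0.92).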

How the data were processed

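As deposited, the values were raw counts of UMIs, in 1 unfiltered matrix of genes by barcodes per library (1067746 Control and 990007 IR barcodes, 48593879 and 42406461 UMIs), made from 10x Genomics 3' libraries with a mm10 reference. The submitters' processing notes give Cell Ranger 6.0.1, while the matrix headers name Cell Ranger 4. The members and gene lists were chosen with earlier results of these data known. Of barcodes with at least 1000 UMIs, 296 Control and 96 IR barcodes over 25% mitochondrial UMIs were left out, and 1 IR barcode under 200 genes, which are limits of the study.

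A gate score was the mean over 6 marker genes of the natural log of 1 plus UMIs per 10000. A cell went to its highest score if that was at least 0.5 and no score of another lineage exceeded 0.6 of it (monocyte and macrophage gates counted as 1 lineage, as did the DC gates). These cutoffs were set after the counts were seen. This left 762 Control and 732 IR cells ungated, of them 572 and 611 of mixed lineage, the only treatment of doublets in the main values. Of the monocyte and macrophage cells, 92 of 2966 in Control and 125 of 1673 in IR lay within 0.2 of the cut between these gates. UMIs were summed per gate and library and scaled to CPM. No test was run, since each group had 1 library: levels carry exact Poisson, shares exact Clopper-Pearson and ratios exact conditional 95% intervals. Ratios were given for gates with at least 20 cells per library, and counts past 2-fold for genes with at least 20 UMIs. The B cell (14 and 8 cells) and cDC1 (23 and 9) gates had too few cells. A gate's free RNA share was estimated from the level of C1q genes or T gate genes in it relative to barcodes of 10 to 100 UMIs, the lower of both where both could be used. This differs from the planned use of C1q genes alone, which could not serve macrophages or monocytes.

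Named were the 5 members, related genes past 2-fold in all kept cells or else the first of each list with its extremes (named after their values were seen), and the 10 genes most like Isg15 by Pearson r of log2(CPM + 10) among genes with at least 200 UMIs, without mitochondrial and Y-linked genes and Xist. For the other members the 1 to 3 most alike are named. Promoters came from RefSeq (GRCm38.p6), with entries for 4 of the 5 members, and gene positions from GENCODE vM21 (GRCm38). A search of GENCODE transcripts found stretches of at least 100 bases and 95% identity in other listed genes for Herc6 (7 genes, at least 4089 bases from the transcript's end) and Ube2l6 (Platr15, with 0 and 1 UMIs), and in 0 for the other members. Alternatives concerned the UMI floor, the mitochondrial limit, doublet scores (Scrublet in scanpy 1.11.5), gate genes and margin, the CPM total, TMM scaling (edgeR 4.0.16, used for scaling only), free RNA, thinning depth, the pseudocount and the UMI minimum. The interval and thinning code was tested on simulated data. Python 3.11.15, numpy 2.4.6, scipy 1.17.1 and R 4.3.3 were used.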

Additional observations from a re-analysis of the deposited data

Results flagged for a closer look

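Barcodes of 10 to 100 UMIs entered the comparison of cells only through the free RNA estimates. They held more RNA of 4 members in IR than in Control, beyond counting error. The share of all genes that would pass this rule was not computed. These barcodes come from the same libraries as the cells, so they are no separate evidence. Isg15 stood there at 634 CPM in IR against 130 CPM in Control, Usp18 at 54.3 against 10.9, Ube2l6 at 83.7 against 42.8 and Herc6 at 32.6 against 17.1. For Uba7 (24.9 against 16.4 CPM) the intervals overlapped. The Control level of Isg15 in these barcodes exceeded that in kept cells (88.4 CPM). Of the Isg15 level of a compared gate, the largest estimated part from free RNA was 33.7%, in Control macrophages. Of the Ube2l6 level of NK cells, which rests on 1 and 3 UMIs, the estimated part was 60.3% in Control and 42.1% in IR.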

How the results depend on the processing

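No paired analysis was possible because each group has 1 library. With the library as the unit, no value here has a check against variation between animals. Of 397 log2 ratios recomputed under the alternatives, 382 stayed within the counting interval of the reported value, 13 moved beyond it and 2 that were past 2-fold turned direction. Values changed sign for Uba7 in 5 of 71, Herc6 in 4 of 73, Usp18 in 1 of 73 and Ube2l6 in 1 of 63. Not all of them were near 0, and they include the turns that follow. Isg15 stayed at least 2-fold higher in IR in all 82 such values by gate, with log2 ratios from 1.23 to 3.43. In all kept cells its log2 ratio was 2.96 outside mitochondrial and ribosomal protein genes and 3.21 with free RNA subtracted. By gate it moved over 1.5-fold in T cells (3.21) and cDC2 (2.07) without Ly6c2 and Plac8 among the monocyte gate genes, in NK cells (2.48) with the stricter margin, and in neutrophils (2.44) with TMM scaling. The cause was not tested.

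Both turns of direction were in neutrophils with a floor of 2000 UMIs, which left 5 Control cells: Uba7 gave -2.17 and Ube2l6, at the 3 counts that 0 Control UMIs allow, -0.65. Usp18 (from 0.65 to -0.16) and Herc6 (from 0.89 to -1.54) changed sign there as well. That floor left 1 member past 2-fold in this gate, and TMM scaling gave 5. A floor of 500 UMIs gave 4 there and free RNA subtraction, under which Ube2l6 had no value, 2. Elsewhere the count changed in cDC2 (3 to 2, Ube2l6 at 0.71) and T cells (3 to 4, Ube2l6 at 1.31) without Ly6c2 and Plac8, and in the collagen-expressing cells (5 to 4, Uba7 at 0.96) with doublet scores removed. In the remaining gates and in all kept cells the alternatives run left the count as reported.

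The percent of Isg15-positive cells depends on depth by construction: thinned to 2000 UMIs it was 13.3% in Control and 45.8% in IR, and not thinned 30.1% and 66.9%. A floor of 500 UMIs gave 28.3% and 65.0% without thinning, and removing the highest doublet scores gave 32.4% in IR after thinning. The percent of all genes at least 2-fold higher in IR was 3.37% with a minimum of 100 UMIs and 9.78% with 1 UMI in each library, which test other sets of genes. With 1 CPM added in place of 10, 8 of the 10 genes most like Isg15 were the same. Leaving out monocyte-gate cells with at least 2 UMIs of Siglech and Ccr9 or 3 of Nkg7 and Il2rb, an alternative chosen after seeing the data, left 3 members past 2-fold in this gate and gave an Isg15 log2 ratio of 2.28.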
